A study of Rattus norvegicus with 4 samples.

Results

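The genes described here encode the proteins of the cytosolic ribosome, in neonatal rat hippocampus after prenatal exposure to bisphenol A (BPA), an endocrine-disrupting chemical of plastics. They were chosen by name: rows with a gene ID whose symbol was Rpl or Rps followed by a number, Rplp0, Rplp1, Rplp2 or Rpsa, without the Rps6ka and Rps6kb kinases. This rule found 82 of 17445 rows. Of these, 80 encode ribosomal proteins, 48 of the large subunit and 32 of the small subunit, and Rps6kc1 and Rps19bp1 matched by name only and were left out. All 80 were listed in all 4 libraries and passed the filter of a mean of at least 1 FPKM (mapped fragments scaled to gene length and to library depth), so no member was lost to it.

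Each library was a pool of 3 hippocampi from Wistar pups on postnatal day 1. The 4 groups were the control and BPA pups of each sex, with 1 library each. The dams were 10 weeks old, and those of the BPA groups were given BPA at 5000 µg per kg of body weight every day from gestation day 1 until birth, and those of the control groups the vehicle alone. Exposure was therefore through the dam in all pups, a pool gives no spread between animals, and male and female pools may share dams.

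The ribosome joins a small subunit, which reads the mRNA, to a large subunit, which forms the peptide bond. In mammals most ribosomal proteins come from a single active gene among many processed pseudogenes, a few have a second functional gene, and the proteins are made in nearly equal numbers. Their mRNAs begin with an uninterrupted run of pyrimidines at the cap, the 5′ terminal oligopyrimidine (TOP) tract, through which mTOR signalling sets how much of them is translated. In neurons, ribosomal protein mRNAs are also carried into growing axons and dendrites.

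Promoter sequences from RefSeq (build GRCr8) were found for 62 of the 80 genes, and windows from 20 bases before to 10 bases after the annotated start were read on the strand of the gene. A tract was counted where a C within 5 bases of the annotated start was followed by at least 4 bases that were each C or T. The first set shows 5 clear cases, with the tract in capitals.
Rpl10, chrX:157205830-157205859, plus strand: atgcgcaggcgtgggagcgtCTCTTTTCCT
Rplp1, chr8:71290863-71290892, minus strand: tgcgcgcaggcgcatgtgatCCTTTCCTCa
Rpl27a, chr1:172974553-172974582, plus strand: cctcgcgagacttggtgggCTCCTCCCTCT
Rps23, chr2:23814497-23814526, plus strand: ccttgtgggtccttcctgCCTCTCTTCTCT
Rps24, chr16:96497-96526, plus strand: ggcagtgagcggtcctCTTTTCCTCCTTTa
The tract of Rps23 ran on beyond the window to 21 bases, the longest found. Of the 62 genes, 36 had a tract (58.1%), against 17.0% of all 27457 promoters, and 28 had one of at least 8 bases (45.2%, against 4.06% of all promoters). When the search was widened to 20 bases on each side of the start, 42 of the 62 had a tract of at least 8 bases (67.7%, against 13.8% of all promoters). The annotated start is not the measured start in this tissue, so a missing tract says only that these letters were not found near it. Of 59 promoters of mitochondrial ribosomal proteins, which are encoded in the nucleus but work in a different ribosome, 27.1% had a tract and 1.69% one of at least 8 bases (16.95% in the wider search). Of 11 promoters of other genes of the TOP mRNA class, 36.4% had a tract and 18.2% one of at least 8 bases (45.5% in the wider search).

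The next set is shown because each pair encodes 2 forms of the same protein, and it holds all 5 such pairs with both promoters in the table.
Rps27, chr2:177964597-177964626, minus strand: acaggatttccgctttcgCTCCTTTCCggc
Rps27l, chr8:76443638-76443667, plus strand: ttatagtttattcatttgtcattatttgtg
Rpl22, chr5:168117941-168117970, plus strand: cctgcgtagtgcgccCCCCTCCCTTTCTgc
Rpl22l1, chr2:113683176-113683205, plus strand: tgagcgctccgtggatatccggttccgagt
Rpl39, chrX:121195887-121195916, minus strand: cagcgtcttctaatcgcgttCTTCCggcct
Rpl39l, chr10:5966612-5966641, minus strand: ttttaactgccaggccgtcccgctatcctg
Rpl36a, chrX:102059429-102059458, plus strand: aggcaccgcctataaaCTTCCgttgctgct
Rpl36al, chr6:93392249-93392278, minus strand: tcagttccgacttccgctccatccgtccct
Rps4x, chrX:71342912-71342941, minus strand: caggctccagcgcgcgcagCCTCCgaccct
Rps4y2, chr4:183000893-183000922, plus strand: attgcgcgcgcagctCTCCTCactcgcttg
In 4 of the 5 pairs only the first form had a tract, and in Rps4x and Rps4y2 both had one, of 5 and 6 bases. A match is a description of the letters and not a measured site.

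Ribosomal protein mRNAs were among the most abundant in the tissue. The mean level over the 4 libraries had a median of 498 FPKM over the 80 genes, against 13.3 FPKM over the 10777 other rows with a gene ID and a mean of at least 1 FPKM. They made up 16 of the 50 rows with a gene ID with the highest means, 44 of the highest 100 and 63 of the highest 200. Small subunit genes had a median of 547 FPKM and large subunit genes 463 FPKM, with wide overlap. The 80 rows together held 8.73% and 8.96% of the summed FPKM in the control and BPA libraries of males and 8.69% and 9.60% in those of females. The female BPA library had the highest share and the other 3 lay close together.

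In what follows, levels are in FPKM and are given with males before females and, within a sex, control before BPA. The highest mean belonged to Rpl41, the shortest ribosomal protein, at 1200.1, 1199, 1311 and 1358 FPKM. Rps2, near the mRNA entry channel, was at 1345, 1343, 984 and 1208 FPKM. Rpsa, the laminin receptor protein of the small subunit, was at 953, 944, 891 and 947 FPKM. In Rps2 both male libraries lay above both female libraries, in Rpl41 both female libraries lay above both male libraries, and in Rpsa the female control was the lowest. Between them, 66 genes had a mean of at least 100 FPKM, and over these the levels in any 2 libraries correlated across genes with a Pearson r of 0.97 or more, as levels from the same tissue and reference do.

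**Figure D1:**
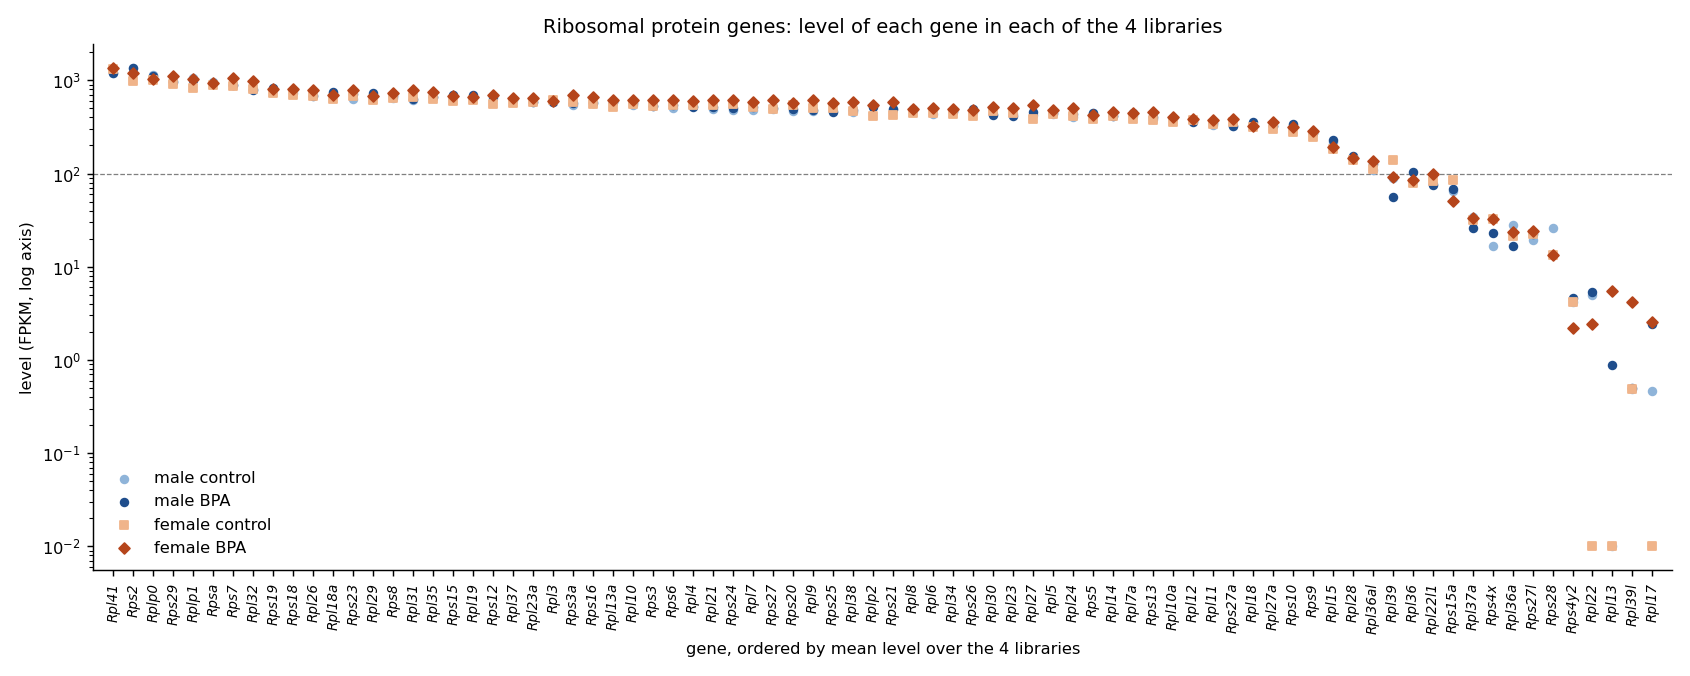
Level of each of 78 ribosomal protein genes in each library, in FPKM on a log axis, with genes ordered by their mean and a dashed line at 100 FPKM. The means of 62 genes lie between 200 and 1267 FPKM with the 4 libraries close together, and 14 genes at the right fall below 100 FPKM on average, with Rpl13 listed at 0.01 FPKM in both control libraries, where the 2 points overlap.

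The other 14 genes had means under 100 FPKM, and 5 of them, Rps4y2, Rpl22, Rpl13, Rpl39l and Rpl17, had means under 10 FPKM. For most of the 14 the protein itself was not scarce in the files, because much of its signal was listed in other rows. The files also hold gene models that the authors assembled and that carry no gene ID, each with a KEGG term naming its protein. The 76 terms for cytosolic ribosomal proteins collected 100 such rows or pseudogene rows beside the named genes. In 12 of the 76 terms the other rows held over 50% of the summed level, 10 with a named gene row and 2 without one. Rpl13 itself was at 0.01, 0.88, 0.01 and 5.47 FPKM, where 0.01 is the lowest value the files hold, while the other rows of its protein summed to 671, 667, 497 and 594 FPKM. Rpl17 was at 0.47, 2.46, 0.01 and 2.57 FPKM beside 451, 443, 462 and 515 FPKM in other rows. No fold is given for these genes, since a control library at the lowest value allows none.

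The same held for less extreme cases. Rpl37a was at 34.1, 25.98, 32.0 and 33.2 FPKM, while the row Rpl37a-ps1, named as a pseudogene, was at 702, 768, 767 and 829 FPKM. Rps4x, the X-linked form of a small subunit protein, was at 16.8, 22.9, 32.9 and 32.2 FPKM, and together with its paralog Rps4y2 it held 4.78% of the level summed over its term. Rps28 held 3.90% and Rps15a 10.5% of theirs. Proteins S14 and L35A had no row with a gene ID at all and were found in gene models only, S14 at 399, 391, 384 and 412 FPKM and L35A at 261, 262, 297 and 313 FPKM. Summed over all rows of a protein, levels ran from 146 to 1279.9 FPKM, 8.75-fold from the lowest to the highest, and no protein was under 100 FPKM. For the rows under 100 FPKM, a different sharing of reads between near-identical rows and a different mRNA level cannot be told apart in these files. Rps9 had a further row, LOC103689992, with identical values in all 4 libraries.

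**Figure D2:**
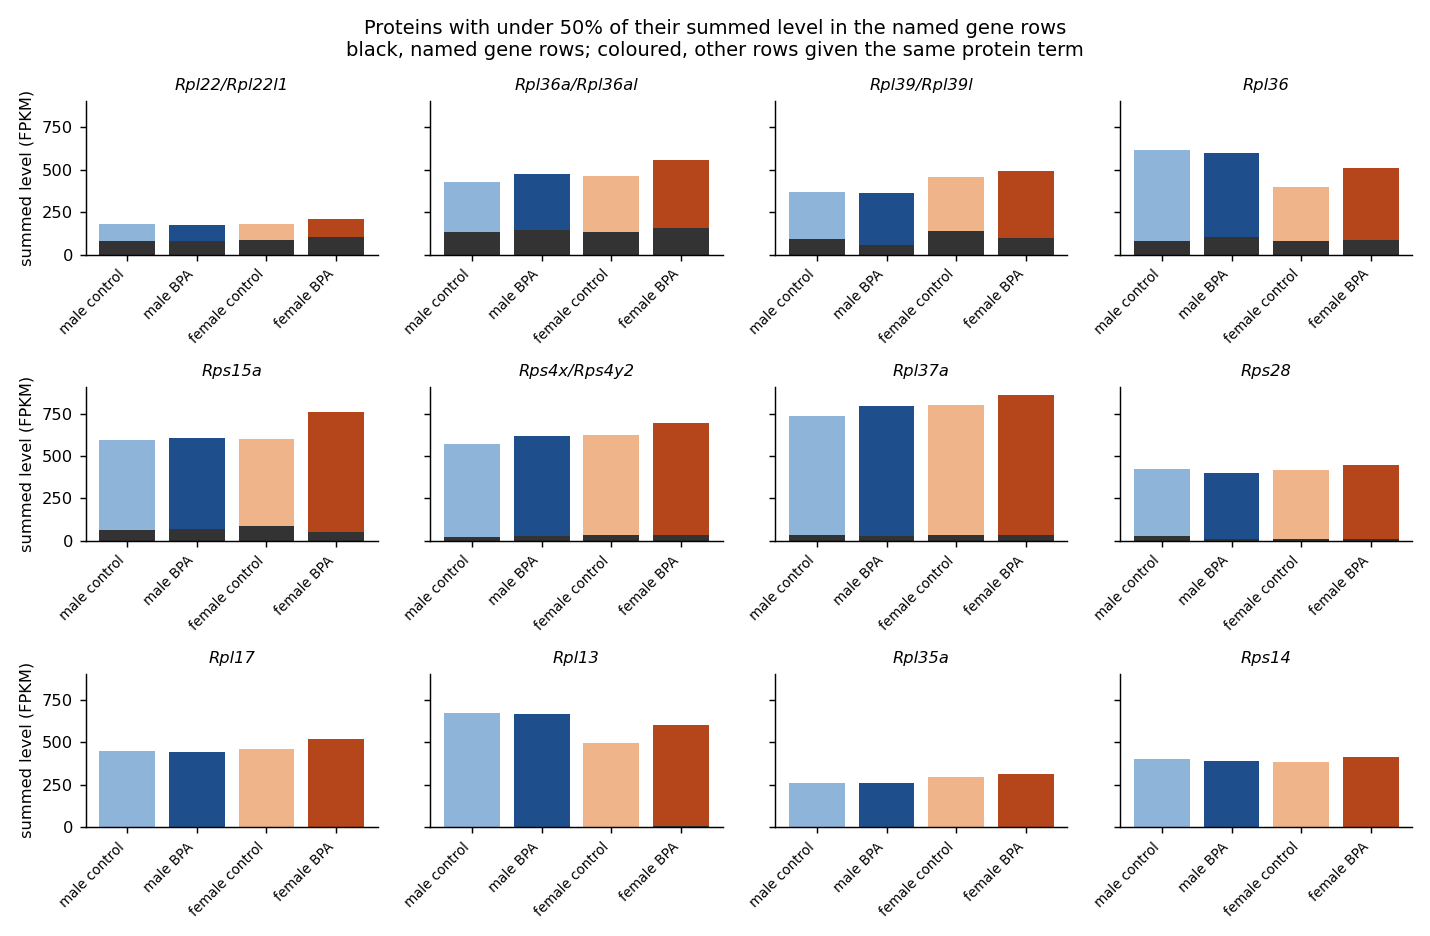
Summed level in FPKM for the 12 proteins with under 50% of their level in the named gene rows, 1 bar for each library, with the named gene rows in black and all other rows of the same protein term in colour on top. The black part differs between proteins, up to 46.5% of the summed level for Rpl22 and Rpl22l1, and for Rpl35a and Rps14 it is absent.

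In females, ribosomal protein mRNAs were higher in the BPA library than in the control library almost throughout. On the log2(FPKM + 1) scale, which understates the change of low genes, 74 of 80 were higher, where 43.2% of all 13542 rows tested were higher. The median difference was 0.19, against -0.04 over all rows. In males 54 of 80 were higher in BPA, where 49.2% of all rows were higher, and the median difference was 0.04, against -0.0019 over all rows. Within a sex there was 1 library against 1, so these are comparisons of libraries with no replicate check and no test. In whole-tissue RNA, fewer cells of a type and less RNA per cell cannot be told apart.

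The pattern was clearest among the 66 genes at 100 FPKM or more, where row sharing matters less but is not absent. Named gene rows held 29.6% of the level of the protein term of Rpl36al and 74.9% of that of Rps10. In females 65 of the 66 were higher in BPA, with differences from -0.0031 for Rpl3 to 0.48 for Rpl27, a median of 0.19 and an SD over genes of 0.09. In males 45 of the 66 were higher, from -0.07 for Rpl12 to 0.22 for Rpl36al (0.14 with its protein's rows summed), with a median of 0.04 and an SD of 0.06. Counting error alone, from a depth of 8648000 to 8896000 fragments estimated from the smallest steps in the values, gave a median standard error of 0.04 for the difference of 1 gene. Small subunit genes had a median of 0.21 in females and large subunit genes 0.18. Male and female differences of the same genes gave a Pearson r of 0.03 and a Spearman rho of -0.0027 over the 66 genes, which share their libraries.

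Summing all rows of a protein left the female pattern in place. Of the 76 protein sums, 74 were higher in female BPA than in female control, with a median difference of 0.19 and a range from -0.07 to 0.44, and 48 were higher in male BPA than in male control, with a median of 0.015 and a range from -0.09 to 0.16.

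**Figure D3:**
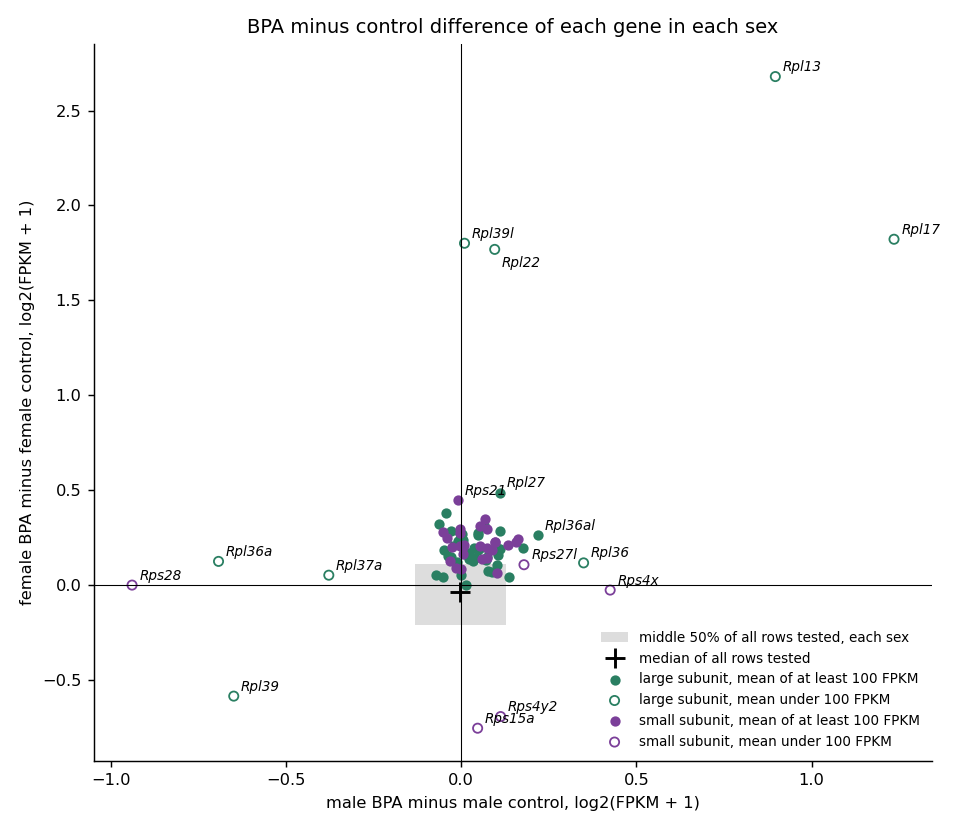
BPA minus control difference on the log2(FPKM + 1) scale for each gene, males on the horizontal and females on the vertical axis, with filled points for genes of at least 100 FPKM and open points for lower genes. The filled points form a compact group above the female zero line, apart from Rpl3 on it, and around the male zero line, mostly above the grey box that holds the middle 50% of all rows in each sex, and the scattered open points are rows under 100 FPKM.

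The female difference lay between 2 libraries that each stood somewhat apart. Female BPA was the highest of the 4 libraries for 53 of the 80 genes (66.3%, against 21.9% of all rows) and female control the lowest for 38 (47.5%, against 22.2% of all rows). Over the 66 genes at 100 FPKM or more, the female BPA library exceeded male control by a median of 0.17 and male BPA by 0.12, while female control was below male control by a median of 0.03 (-0.03). The female difference thus held a higher female BPA and, by a smaller amount, a lower female control. Without the female BPA library the BPA minus control median over the 80 genes was 0.05, and without the male BPA library it was 0.17.

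The female median also depended on the scaling. Quantile normalization, which gives all libraries the same distribution, took the female median from 0.19 to 0.04 with 55 of 80 genes higher, and median-ratio scaling took it to 0.24 with 77 of 80 higher. Other abundant mRNAs were also mostly higher in female BPA: of 603 other rows with a gene ID and a mean of at least 100 FPKM, 71.0% were higher in BPA, with a median of 0.06 and an SD of 0.19. The ribosomal protein genes had the larger median, 0.19, and the smaller SD, 0.09, at that level of abundance.

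The proteins of the stalk, which recruits elongation factors to the large subunit, differed in females by unequal amounts. Rplp1 was at 1062, 1016, 830.1 and 1037 FPKM, so that female control lay below the other 3 libraries. Rplp2 followed at 529, 514, 413 and 537 FPKM, with the same library lowest. Rplp0, the protein to which both bind, was at 1153, 1113, 1008 and 1035 FPKM and Rpl12, at the base of the stalk, at 378, 360.0, 372 and 386 FPKM. The female differences were 0.32 for Rplp1, 0.38 for Rplp2, 0.04 for Rplp0 and 0.05 for Rpl12, and the male differences were all below 0, from -0.07 to -0.04.

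At the core of the large subunit, Rpl3 and Rpl10 lie near the peptidyl transferase centre. Rpl3 was at 587, 592, 608 and 607 FPKM, 1 of the 6 genes with no higher level in female BPA. Rpl10 was at 544, 572, 558 and 610.0 FPKM, with both BPA libraries above both control libraries. Rpl5 and Rpl11, which bind 5S rRNA and restrain Mdm2 when ribosome assembly fails, were highest in female BPA. Rpl5 was at 435, 447, 439 and 484 FPKM and Rpl11 at 331, 349, 340.0 and 376 FPKM. Both BPA libraries were above both controls in each, with male differences of 0.04 and 0.07 and female differences of 0.14 and 0.14.

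Among other large subunit proteins, Rpl27 had the largest female difference of the 66 abundant genes, at 421, 455, 387 and 542 FPKM. Rpl38, known for its part in translating Hox mRNAs, was at 459, 479.9, 470.2 and 585 FPKM. Rpl6 was at 438, 495, 447 and 510.2 FPKM, with differences of 0.18 in males and 0.19 in females, and was among the 5 genes with the largest positive difference shared by both sexes. Rpl13 and Rpl17, near the lowest value, were also among the 5. Summed with its other row, Rpl6 differed by 0.08 in males and 0.18 in females. Rpl13a, which can leave the ribosome to silence inflammatory mRNAs, was at 589.8, 591, 514 and 619 FPKM, with differences of 0.0026 in males and 0.27 in females. In Rpl7, at 483, 522, 518 and 590.3 FPKM, the 2 BPA libraries were again the upper 2.

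In the small subunit, Rps6, the substrate of the S6 kinases, was at 511, 537, 543 and 621 FPKM. Rps21 had the largest female difference of the small subunit, 0.44, at 491, 488, 425 and 579 FPKM. Rps29 was at 987, 952, 922 and 1118 FPKM. In Rps6, Rps21 and Rps29 female BPA stood above the rest, and in Rps29 the male BPA library was below its control.

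Rps19, Rps24 and Rps26 are genes whose loss of 1 copy causes Diamond-Blackfan anaemia. Rps19 was at 778, 819, 727 and 802 FPKM and Rps26 at 457, 489, 415 and 486 FPKM, with both BPA libraries above both controls. Rps24, at 485, 506, 561 and 616 FPKM, was highest in female BPA. Rps25, needed for initiation at several internal ribosome entry sites, was at 471, 462, 502 and 576 FPKM. Rps27a, made as a fusion with ubiquitin, was at 320.5, 320.2, 358 and 379.9 FPKM, with differences of -0.0013 in males and 0.08 in females.

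The order of the paralogs differed between pairs. Rps27 was at 488, 506, 498 and 617 FPKM and Rps27l, a target of p53, at 19.6, 22.3, 22.2 and 24.0 FPKM. Rpl22l1 was at 77.0, 75.8, 83.3 and 99.1 FPKM while the row of Rpl22 was at 4.97, 5.38, 0.01 and 2.44 FPKM, so that the row of the paralog was the higher here and that of Rps27 in its pair. Another row of the L22 protein added 95.7, 95.6, 98.8 and 109.6 FPKM, and which gene it belongs to is not known here. Rpl39l, a paralog known from testis, was at 0.49, 0.50, 0.49 and 4.19 FPKM. Rpl36al was at 108, 126, 112 and 135 FPKM, with both BPA libraries above both controls, and Rpl36a was lower in every library, at 27.8, 16.8, 21.4 and 23.4 FPKM. Rpl3l, Rpl10l and Rpl7l1 had no row.

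Rpl39, which lines the exit tunnel, and Rps28, at the mRNA exit channel, were the 2 genes lower in BPA in both sexes, where 31.6% of all rows were lower in both. Rpl39 was at 88.9, 56.3, 139.6 and 92.5 FPKM, a difference of -0.65 in males and -0.59 in females. Its other row was at 279.6, 309, 318 and 399 FPKM, and the sum with Rpl39l was 369, 365, 458 and 496 FPKM, with a female difference of 0.11. Rps28 was at 26.2, 13.2, 13.3 and 13.3 FPKM, with the male control library alone standing apart, and its sum with other rows was 425.5, 399, 417 and 449.7 FPKM. In both, the level summed over the protein was higher in female BPA than in female control.

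Across both sexes, with 2 BPA libraries against 2 control libraries in limma, none of the 80 genes passed an adjusted p of 0.05 (0 of 13542 rows did, 0.0%). The smallest adjusted p was 0.852, for Rpl17. At an unadjusted p under 0.05 in limma, 4 genes passed and all 4 were higher in BPA, Rpl17, Rpl13, Rpl36al and Rpl27, where 4.7% of all rows passed, 1.6% as higher and 3.11% as lower. The first 2 are rows near the lowest value of the files. Rpl36al had a log2 difference of 0.24 with a standard error of 0.10 and Rpl27 one of 0.30 with a standard error of 0.12. Summed over the rows of each protein, these differences were 0.21 and 0.24. An exact permutation of 2 libraries against 2 could not give a two-sided p below 0.333.

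With sex as a covariate, which removes the difference between male and female libraries from the error, again no ribosomal protein gene passed in limma. The nearest was Rpl39, with a log2 difference of -0.62, a standard error of 0.07 and an adjusted p of 0.0611. Its counting error alone was estimated at 0.165 for the male difference and 0.129 for the female one. The standard error of 0.07 may therefore be too small and the adjusted p too low. The unadjusted threshold was then passed by 11 genes (8.98% of all rows passed), 9 of them higher (3.6% of all rows).

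Counting order alone, both BPA libraries lay above both control libraries for 35 of the 80 genes, where 13.8% of all rows did, and below both for 1, Rps28, where 19.9% did. A difference of the same sign in both sexes was seen as higher for 50 genes, where 24.4% of all rows were higher in both. A further 24 genes were lower in male BPA and higher in female BPA (18.6% of all rows), and 4 the other way round (24.6%). A log2 difference of at least 0.25 was reached in females by 21 genes as higher (10.9% of all rows) and by 3 as lower, Rps4y2, Rps15a and Rpl39 (21.2% of all rows). In males it was reached by 4 as higher, Rpl13, Rpl17, Rps4x and Rpl36 (11.9% of all rows), and by 4 as lower, Rps28, Rpl36a, Rpl39 and Rpl37a (12.6% of all rows). All 8 male genes and all 3 lower female genes had means under 100 FPKM. Of the 21 higher female genes, 17 had means of at least 100 FPKM, and Rpl13, Rpl17, Rpl22 and Rpl39l had means under 10 FPKM. The protein sums of Rps4y2, Rps15a and Rpl39 were higher in female BPA, by 0.16, 0.34 and 0.11.

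Between the sexes, the 80 genes had a median female minus male difference of 0.06. None passed an adjusted p of 0.05 in limma, where 0.00738% of all rows did, and 11 passed unadjusted (13.8%, against 10.6% of all rows), 8 of them higher in females (3.88% of all rows) and 3 lower (6.76%). With treatment as a covariate Rpl39, an X-linked gene, passed in limma, higher in females by 0.68 with a standard error of 0.07 and an adjusted p of 0.0126, against 0.418 without the covariate. In that fit 0.406% of all rows passed. The standard error of 0.07 may again be too small, given the counting errors of 0.165 and 0.129 for Rpl39. The level of Rpl39 was higher in both female libraries than in the male library of the same treatment, and so was the level summed over its protein's rows. The X-linked Rps4x followed with a log2 difference of 0.70 and an adjusted limma p of 0.0598. Its row and that of Rps4y2 held 4.78% of their protein's level, which summed to 570, 620, 622 and 696 FPKM. The X-linked Rpl10 and Rpl36a had female minus male differences of only 0.06 and 0.04. Without the female BPA library the median over the 80 genes was -0.03, and without the female control library it was 0.15.

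Within the 66 abundant genes, the female difference was larger for shorter mRNAs. The length in the files correlated with the female difference with a Spearman rho of -0.47 and a Pearson r of -0.49 across the 66 genes, and with the male difference with a rho of 0.02 and an r of 0.0003. These are correlations across genes of the same libraries, which are not independent replicates. Other short abundant genes were also mostly higher in female BPA: of 119 other rows with a gene ID, under 1000 bases and at 100 FPKM or more, 79.0% were higher in female BPA, with a median of 0.11, and 36.1% were higher in male BPA, with a median of -0.04. The part of length in the female difference was not tested.

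**Figure D4:**
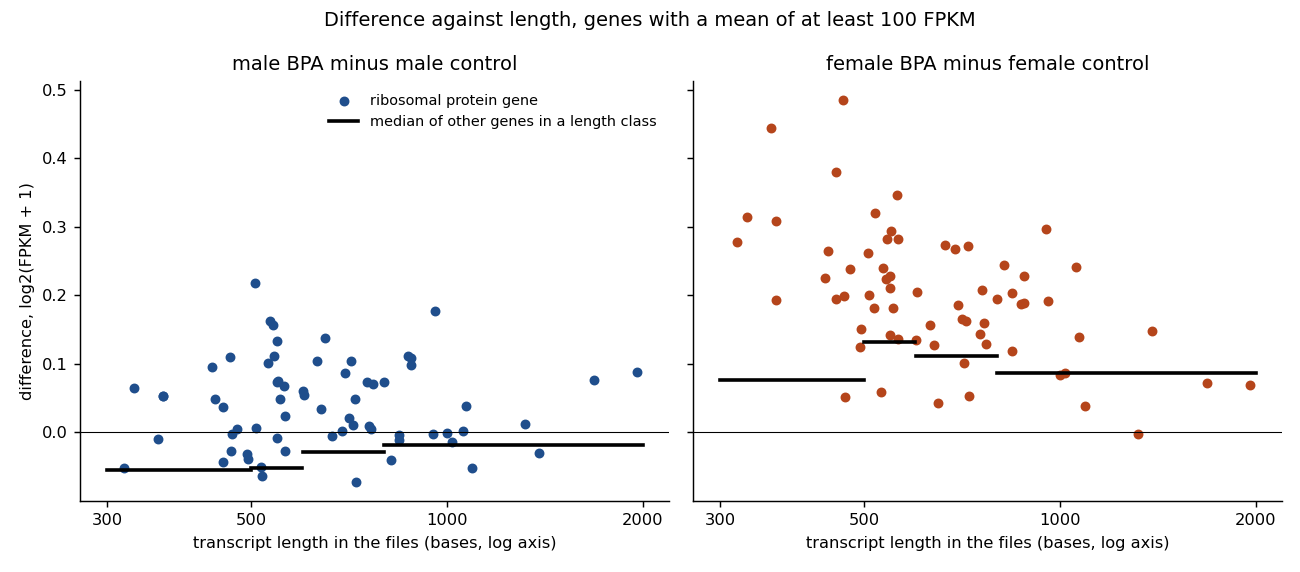
BPA minus control difference of each of the 66 ribosomal protein genes with a mean of at least 100 FPKM against transcript length on a log axis, males on the left and females on the right, with black bars for the median of other rows with a gene ID and the same minimum level in 4 length classes. Female points lie mostly above the black bars and are highest among the shortest mRNAs, and male points are spread about zero with the bars below it.

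Genes linked to the ribosome were compared as lists. Of 16 other genes of the TOP mRNA class, 13 were higher in female BPA with a median of 0.10, and 5 were higher in male BPA with a median of -0.03. Over all rows, 43.2% were higher in female BPA and 49.2% in male BPA. For other rows with a gene ID at 100 FPKM or more, these shares were 71.0% and 38.8%. Eef1a1, the elongation factor that carries aminoacyl-tRNA, was at 3104, 3248, 3226 and 3554 FPKM, and Tpt1, a translationally controlled growth protein, at 810.3, 854, 887 and 1010.3 FPKM. Pabpc1, which binds poly(A) tails, was lower in BPA in both sexes. None of the 16 passed an unadjusted p of 0.05 in limma, where 4.7% of all rows did.

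Of 28 factors in the assembly of new ribosomes, 21 were higher in female BPA with a median of 0.06 and 17 in male BPA with a median of 0.01, and 1 passed an unadjusted p of 0.05, where 4.7% of all rows did. The 11 genes of RNA polymerase I and rDNA transcription had a median of 0.20 in males and 0.04 in females. The 16 genes of mTOR signalling and its TOP regulators had medians of 0.0066 and 0.08. Outside the cytosolic ribosome, 73 mitochondrial ribosomal proteins had medians of -0.04 in males and 0.02 in females, 78 subunits of oxidative phosphorylation -0.05 and 0.04, and 36 proteasome subunits -0.0040 and 0.11. Each of these lists had a female median below 0.15. Genes with a tract near their start and genes without one had female medians of 0.20 and 0.19 (28 and 21 genes with a promoter and a mean of at least 100 FPKM).

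**Figure D5:**
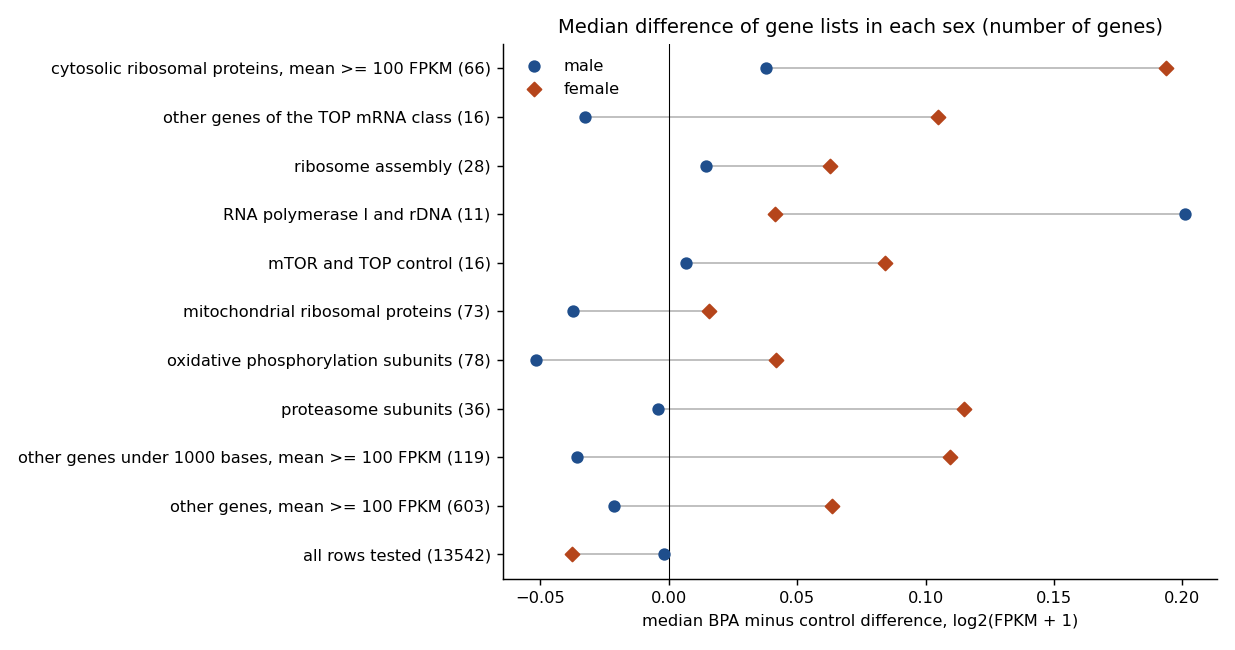
Median BPA minus control difference on the log2(FPKM + 1) scale for lists of genes linked to the ribosome, other large complexes and other abundant genes, without the cell type markers, circles for males and diamonds for females, with the number of genes in parentheses. Of the lists plotted, the cytosolic ribosomal proteins have the female median farthest to the right, at 0.19, and the RNA polymerase I list is the one whose male median is farthest to the right, at 0.20.

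Cell type markers differed between the libraries as well. All 8 markers of excitatory hippocampal neurons were detected and summed to 483, 463, 429 and 473 FPKM. Red blood cell markers, 4 of 6 tested, summed to 1339.7, 1149.8, 1074 and 1358 FPKM, with female BPA highest and male control close to it. Of the 4, 3 were higher in female BPA and 0 in male BPA, where 54 of the 80 ribosomal protein genes were higher. Choroid plexus markers, 4 of 5 tested, summed to 263, 701, 7.16 and 45.2 FPKM, of which Ttr gave 256, 689.5, 3.96 and 42.4 FPKM. Meninges and vessel wall markers summed to 117, 104, 167 and 106 FPKM, with all 6 lower in BPA in both sexes. Radial glia and astrocyte markers summed to 1278, 1156, 1260.0 and 1179.6 FPKM, interneuron markers to 134, 129, 112 and 105 FPKM, cycling cell markers to 38.9, 34.3, 40.03 and 35.3 FPKM and microglia markers to 28.6, 35.8, 37.7 and 33.4 FPKM. The part of these cell types in the ribosomal protein differences was not tested.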

How the data were processed

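RNA-seq was made from 4 libraries, each of 3 pooled hippocampi. The deposited values were FPKM, computed by the authors from total RNA libraries and written to 2 decimals with a lowest value of 0.01. The submitters' processing notes name HISAT 0.1.6, Bowtie2 2.2.5, RSEM and rn6 without their roles. RSEM divides reads between similar rows, so paralog and pseudogene levels are uncertain. Count tables were not used here.

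The files were joined on row names, and 13542 rows in all 4 files with a mean of at least 1 FPKM were tested on log2(FPKM + 1) in R 4.3.3 by limma 3.58.1, using a trended eBayes prior and Benjamini-Hochberg adjustment over all rows, 2 BPA against 2 control libraries and 2 female against 2 male. The p-values rest on 4 pools and do not measure spread between replicates. In the BPA fit the spread within a group was that between its male and female library. In the fit of sex it was that between control and BPA. With a covariate it was how far the difference of interest varied over the levels of the covariate. Rows of the same protein were summed by KEGG term. Rpl41 has no such term. Depth was estimated from low values of rows with a gene ID, 95.3% to 98.8% of which came within 0.15 of whole fragments, and gives counting error only. Tract searches and plots used Python 3.11.15, pandas 2.3.3 and matplotlib 3.10.9. The fit was tested on simulated data.

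Some named genes are not reported here. The named genes were the 6 with the highest and 4 with the lowest means, the 5 with the largest rise and up to 5 with the largest fall shared by both sexes, the 4 with the largest opposite differences, and paralogs or genes of known role. Rpl27, Rps21, Rpl37a, Rps15a, Rpl36 and Rps9 were named after their values were seen. The members and all lists were chosen with earlier results of these data known. Alternatives tried were the pseudocount, filters, scaling, covariates, row sums and leaving out each library.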

Additional observations from a re-analysis of the deposited data

Results flagged for a closer look

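Rpl36a had opposite differences in the sexes, -0.69 in males and 0.12 in females on the log2(FPKM + 1) scale (BPA minus control). Rps4y2 differed the other way, 0.11 in males and -0.70 in females. In both genes the difference between the sexes was not tested, since each sex had 1 library for each treatment, and both rows were under 30 FPKM. Summed with the other rows of its protein, the term of Rpl36a was higher in BPA by 0.14 in males and 0.27 in females and that of Rps4y2 by 0.12 and 0.16.

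The proteins Rps14 and Rpl35a encode were found in gene models without a gene ID only, outside the rows that the name rule finds, at 399 and 261 FPKM in the male control library.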

How the results depend on the processing

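No ribosomal protein gene was called for BPA minus control under any alternative run, and 4 passed the unadjusted p of 0.05 in limma. Leaving out 1 library gave 4 to 13 genes at that p, with 6 without male control (5.69% of all rows passed) and 13 without male BPA (5.05%), 4 without female control (3.97%) and 4 without female BPA (3.01%). For female minus male 0 were called, 1 with treatment as a covariate and 11 at the unadjusted p. Leaving out 1 library gave 0 calls in both. The lone library is then assumed to vary like the other group, so these 0 calls say nothing of stability. For female minus male it gave 5 genes at the unadjusted p without male control (5.01% of all rows), 2 without male BPA (5.97%), 41 without female control (12.4%) and 23 without female BPA (11.4%). The male median of 0.04 was 0.0199 with rows of a protein summed, taken over the genes and not over the 76 protein sums. The female median of 0.19 was 0.0427 under quantile normalization and 0.24 under median-ratio scaling. Leaving out 1 library moved the median of both sexes between 0.05 and 0.17. The summed share, males first and control before BPA, was 10.3%, 10.5%, 10.2% and 11.3% with all rows of a protein, and 9.48%, 9.73%, 9.44% and 10.4% of the sum over rows with a gene ID. Of 295 values of the 37 named genes under alternatives, 36 had the opposite sign to the reported value. These were Rpl39, Rps28, Rpl36a and Rps4y2 with rows of a protein summed, 6 genes under quantile normalization, 2 under median-ratio scaling, 11 without female BPA, 7 without male control, 5 without female control and 1 without male BPA. The cause was not tested. No paired analysis was possible because the labels carry no replicate numbers. The fit with sex as a covariate stands in its place. Comparing female BPA with each male library was chosen after seeing the data. With 1 pool for each group, no spread between animals was measured.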
